A study of Mus musculus with 8 samples.

Results

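The nuclear genes for the mitochondrial respiratory chain and the ATP synthase were followed in mouse bone marrow cells that differentiated into macrophages with and without loss of Thoc5. Members were taken by name from the array annotation: every gene whose symbol starts with Ndufa, Ndufb, Ndufc, Ndufs, Ndufv, Uqcr, Cox4, Cox5, Cox6, Cox7, Cox8 or Atp5, and Sdha, Sdhb, Sdhc and Sdhd, without the Ndufaf assembly factors. The brightest probe stood for each gene. This gave 86 genes of the 31693 on the array, and 83 of them passed the filter on dim probes, which 17949 genes passed in all. The 83 were 38 genes of complex I, 4 of complex II, 8 of complex III, 15 of complex IV and 15 of complex V, with 3 genes that share a name stem but encode no subunit (Cox4nb, Atp5s and Atp5sl). The 3 genes that did not pass, Cox7b2, Cox8b and Cox8c, were well above background in 0 of 16 channels.

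The respiratory chain lies in the inner mitochondrial membrane. Complex I (NADH dehydrogenase) and complex II (succinate dehydrogenase) pass electrons to ubiquinone, complex III passes them on to cytochrome c, and complex IV (cytochrome c oxidase) passes them to oxygen. Complexes I, III and IV pump protons, and complex V, the ATP synthase, uses the gradient to make ATP. A few core subunits are encoded by mitochondrial DNA, and all genes described here are nuclear. Macrophages are known to shift between oxidative phosphorylation and glycolysis with their state of activation. The nuclear respiratory factor NRF1, the ETS factor GABPA (also called NRF2) and YY1 are known regulators of many of these genes.

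Cytoplasmic RNA of bone marrow derived macrophages was hybridised on 8 Agilent arrays with 2 colours. Cells came from ERT2 Cre control mice, which carry a Cre recombinase that tamoxifen switches on, or from ERT2 Cre Thoc5 (flox/flox) mice (called flox here), in which Cre can delete Thoc5, a subunit of the THO complex that takes part in mRNA export. The labels give C57BL/6 x B6:129 Ola as the background of all mice and name no promoter for the Cre. Every array paired RNA of day 3 under CSF-1, the macrophage growth factor, with untreated day 0 RNA from the matching genotype and experiment, and each day 0 RNA served on both arrays of its genotype in that experiment. The 4 groups, control and flox cells at day 3 without tamoxifen (called untreated) and with it, had 2 arrays each, from 2 biological experiments. Experiment 2 had the dyes inverted, so experiment, dye direction and slide cannot be told apart.

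Thoc5 itself checked the labels. Its log2 ratios of day 3 over day 0 were -3.04 and -3.02 in flox cells with tamoxifen, -0.74 and -0.77 in flox cells without it, -0.40 and -0.28 in control cells and -0.21 and -0.15 in control cells with tamoxifen. The share of probes well above background ran from 51.2% to 57.9% over the channels, no spot was saturated, and the arrays of a group correlated over 17949 genes at 0.785 (control cells without tamoxifen) to 0.928. Of 9 macrophage markers 6, 6, 5 and 6 rose in the 4 groups and 1, 0, 2 and 3 fell, and C1qb, a complement gene of macrophages, changed by 1.81 ± 0.10, 1.89 ± 0.10, 1.88 ± 0.10 and 1.60 ± 0.10 (SE). Neutrophil markers fell in every group, 9, 9, 10 and 10 of 10, with a median log2 ratio of -3.28 to -3.86 on the 8 arrays. Megakaryocyte markers fell too, 5 of 5 in each group with medians of -1.69 to -3.13, mast and basophil markers 2, 2, 3 and 3 of 3, and erythroid markers 2, 2, 3 and 3 of 4. All 6 proliferation markers fell in each group, with medians of -0.995 to -1.84 on the 8 arrays. In bulk RNA, fewer cells of a type and less RNA per cell cannot be told apart, and the part of these shifts in the changes of the respiratory genes was not tested.

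From day 0 to day 3 the respiratory genes moved little, and they moved in both directions. In control cells without tamoxifen 16 of the 83 rose and 20 fell, in control cells with tamoxifen 20 rose and 15 fell, in flox cells without tamoxifen 21 rose and 15 fell, and in flox cells with tamoxifen 16 rose and 14 fell (limma, Benjamini-Hochberg adjusted p under 0.05 over all genes). The members called were 43.4%, 42.2%, 43.4% and 36.1% of the 83, against 57.4%, 57.6%, 57.3% and 58.9% of all genes tested. By direction, 23.3%, 23.9%, 23.9% and 25.5% of all genes were called higher, and 34%, 33.7%, 33.3% and 33.4% lower. Without either array of its own group the calls fell to 19 and 19 in control cells, to 11 and 12 in control cells with tamoxifen, to 10 and 13 in flox cells and to 10 and 13 in flox cells with tamoxifen, in each case without the first and without the second array, and without a term for the experiment 22 were called in control cells. The median log2 change of the members was -0.06, -0.04, 0.05 and 0.01 in the same order of groups, next to -0.06, -0.05, -0.05 and -0.05 over all genes.

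The changes of the members lay closer together than those of all genes. Their interquartile range was 0.305, 0.368, 0.367 and 0.322 on the log2 scale, and that of all genes 0.658, 0.665, 0.662 and 0.696. A change of at least 2-fold was found for 0, 2, 2 and 0 members, while 10.5%, 10.9%, 10.5% and 11.7% of all genes changed that much. The members' probes were among the bright ones on the array: 74 of 83 had a mean log2 brightness above 13, the upper quartile of all genes. Their fitted errors were small, with a median SE of 0.07 against 0.09 over all genes.

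**Figure D1:**
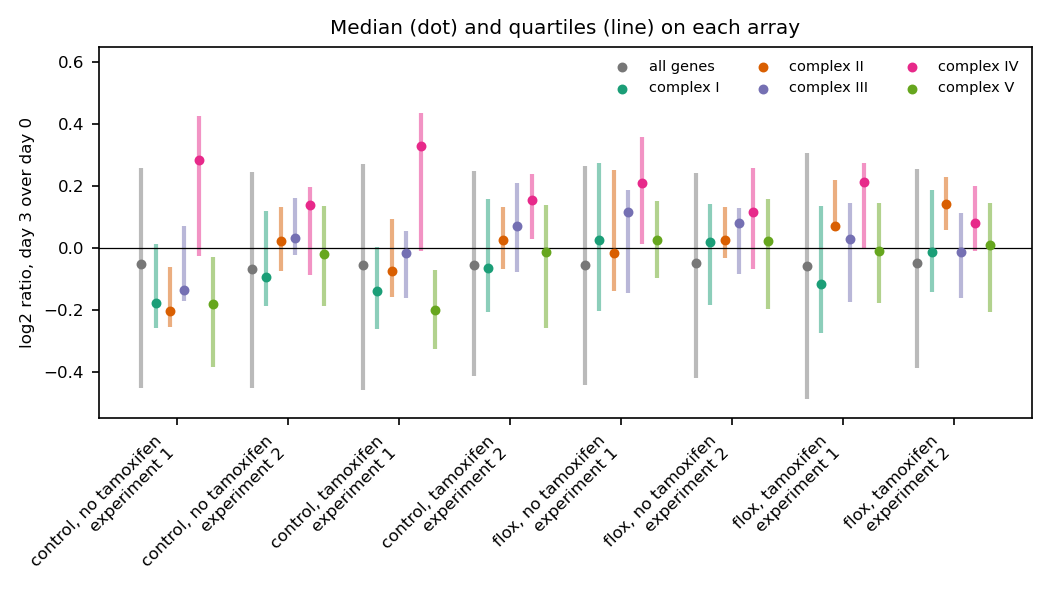
Median (dot) and quartiles (line) of the log2 ratio of day 3 over day 0 on each of the 8 arrays, for all 17949 genes in grey and for the members of each complex in colour. The complex IV medians lie above 0 on all 8 arrays, from 0.08 to 0.33, and the quartile lines of all genes are longer than those of most complexes.

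The groups of 1 genotype share their day 0 RNA, so their calls are not independent. In all 4 groups 10 members were called higher (among them Ndufa6, Ndufa10, Ndufa11, Ndufc2, Ndufs8, Sdhb, Cox6b1, Cox7c and Cox8a) and 10 lower (Ndufa2, Ndufa4, Ndufb3, Ndufb7, Ndufs1, Uqcrq, Atp5a1, Atp5j2, Atp5k and Atp5l). The calls are those of the brightest probe, and a further probe of Atp5j2 had positive changes in all 4 groups. No member was called higher in 1 group and lower in another, and 32 were called in no group. These were 12% higher in all 4, 12% lower in all 4, 0% in both directions and 38.6% in none, next to 13.3%, 20.7%, 3.69% and 19.2% of 17945 genes. Across the 83 members the changes of control and flox cells, which share no RNA but share experiments and slides, correlated at 0.864 without tamoxifen and 0.849 with it, next to 0.872 and 0.815 over all genes. The members' signs matched between both experiments for 64, 71, 65 and 65 of the 83 (77.1%, 85.5%, 78.3% and 78.3%), next to 77.1%, 82.3%, 85.2% and 84.7% of all genes.

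Falls depended on the scaling of the arrays more than rises did. Loess, the scaling used here, sets the typical ratio to 0 at every brightness, so a change is read against genes of like brightness. With 1 median per array subtracted instead, 19 members rose and 5 fell in control cells, 23 and 2 in control cells with tamoxifen, 17 and 1 in flox cells, and 13 and 3 in flox cells with tamoxifen. The members' medians were then 0.10, 0.18, 0.18 and 0.05, with medians of -0.09 to -0.02 over all genes. Of the 10 members called higher in all 4 groups, 9 were again called in all 4 and 10 kept a positive value in each group. Of the 10 called lower in all 4 groups, 0 were again called in all 4, 5 kept a negative value in each group (Ndufb3, Ndufb7, Ndufs1, Atp5a1 and Atp5k), and the other 5 had a positive value in at least 1 group. With Agilent's own processed ratios, which were also scaled by brightness, 9 of the 10 rises and 7 of the 10 falls were called in all 4 groups.

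**Figure D2:**
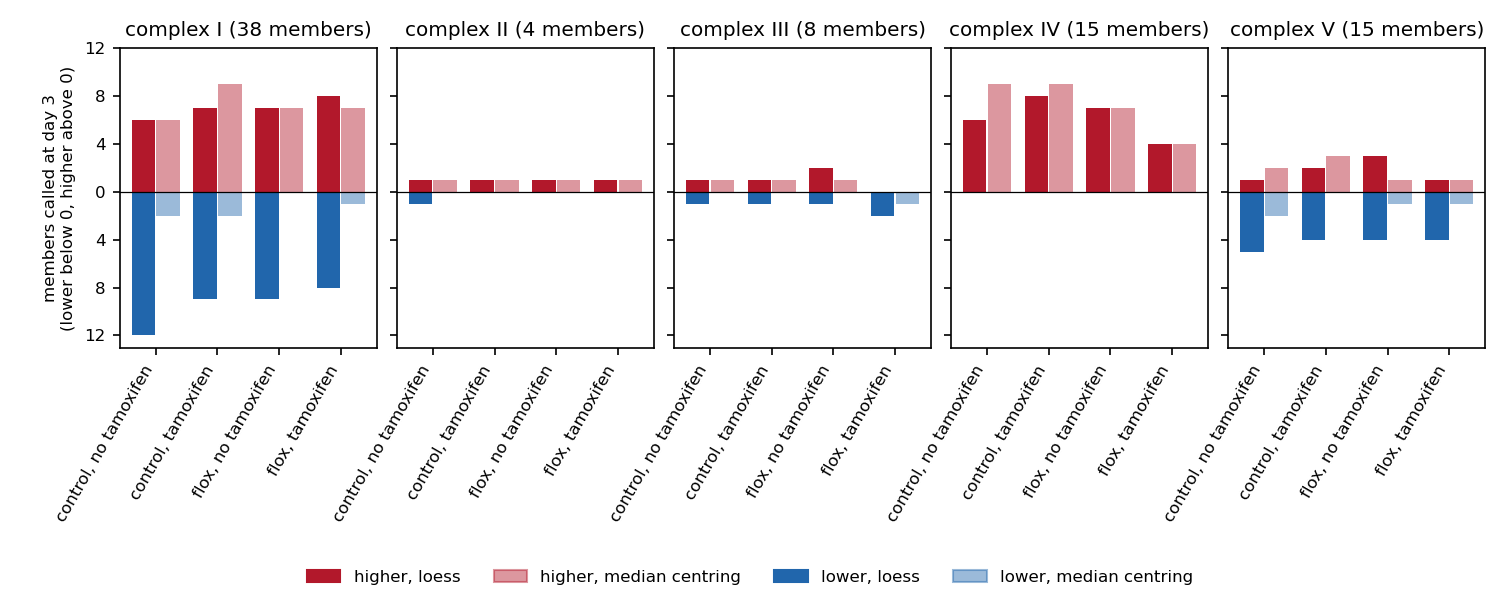
Number of members called higher (red, above 0) or lower (blue, below 0) at day 3 against day 0 in each group and complex, with loess scaling in full colour and with median centring in pale colour. Among the genes filed under complex IV by name, which leaves out Ndufa4, none was called lower under either scaling, while in complex I the 8 to 12 falls under loess became 0 to 2 under median centring.

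Promoters were looked up in RefSeq (GRCm38.p6), from 250 bases before to 50 bases after the gene start, and 70 of the 86 members had an entry. The NRF1 motif GCGCANGCG, read on both strands, was in the windows of 20 of the 70 (28.6%), against 7.03% of 27025 genes and 9.63% of the 17492 genes with a coding transcript. The YY1 motif AAGATGGCG was in 8 (11.4%, against 1.64% and 2.14%), the ETS motif CCGGAAGT in 5 (7.14%, against 4.31% and 5.69%), the ERR motif TCAAGGTCA in 2 (2.86%, against 0.466% and 0.377%) and the E box CACGTG in 7 (10%, against 8.09% and 8.91%). By complex, NRF1 matches were in 8 of 33 members of complex I, 2 of 3 of complex II, 2 of 5 of complex III, 1 of 13 of complex IV and 7 of 14 of complex V. A match is a description of letters, not of binding. In control cells without tamoxifen 2 of the 20 members with an NRF1 match rose and 5 fell, with a median of -0.10, and of the 48 tested members without one 13 rose and 10 fell, with a median of -0.05. In control cells with tamoxifen 3 of the 20 rose and 4 fell (14 and 6 of the 48), in flox cells without it 6 rose and 4 fell (13 and 6 of the 48), and in flox cells with it 3 rose and 5 fell (10 and 5 of the 48).

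These windows are printed 5′ to 3′ on the strand of the gene, with NRF1, ETS and YY1 matches in capitals, to set members of opposite change side by side. Ndufa11 rose and Atp5k fell in all 4 groups, and both hold the same NRF1 palindrome, which counts once on each strand. Cox8a rose in all 4 groups and holds 2 ETS matches. Ndufs6, which was called in no group, holds an NRF1 and a YY1 match. Cox5a, the member called for tamoxifen in flox cells, holds none of the 3.
Ndufa11, chr17:56717512-56717811, plus strand: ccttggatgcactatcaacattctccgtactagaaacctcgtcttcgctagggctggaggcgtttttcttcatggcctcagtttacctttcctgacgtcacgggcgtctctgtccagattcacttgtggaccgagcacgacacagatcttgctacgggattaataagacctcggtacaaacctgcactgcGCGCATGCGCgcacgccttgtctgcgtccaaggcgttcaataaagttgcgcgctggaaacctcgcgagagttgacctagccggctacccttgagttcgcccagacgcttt
Atp5k, chr5:108434350-108434649, minus strand: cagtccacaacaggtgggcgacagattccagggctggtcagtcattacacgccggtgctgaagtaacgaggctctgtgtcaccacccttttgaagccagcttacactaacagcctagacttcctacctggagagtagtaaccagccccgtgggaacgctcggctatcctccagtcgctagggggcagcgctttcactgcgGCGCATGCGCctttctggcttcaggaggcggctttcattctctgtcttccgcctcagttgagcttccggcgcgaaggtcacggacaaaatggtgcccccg
Cox8a, chr19:7217567-7217866, minus strand: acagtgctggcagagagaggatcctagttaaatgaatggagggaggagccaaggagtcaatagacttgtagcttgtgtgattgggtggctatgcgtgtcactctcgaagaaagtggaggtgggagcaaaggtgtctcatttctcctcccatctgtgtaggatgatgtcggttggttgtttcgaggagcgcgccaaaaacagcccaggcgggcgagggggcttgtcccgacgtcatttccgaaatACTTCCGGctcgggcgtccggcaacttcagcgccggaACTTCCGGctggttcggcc
Ndufs6, chr13:73328433-73328732, minus strand: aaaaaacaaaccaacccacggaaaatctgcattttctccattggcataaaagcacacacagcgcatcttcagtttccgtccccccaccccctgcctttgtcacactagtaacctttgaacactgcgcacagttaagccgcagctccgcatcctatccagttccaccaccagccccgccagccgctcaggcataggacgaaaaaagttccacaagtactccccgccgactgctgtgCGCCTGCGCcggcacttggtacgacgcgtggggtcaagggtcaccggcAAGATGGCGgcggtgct
Cox5a, chr9:57520982-57521281, plus strand: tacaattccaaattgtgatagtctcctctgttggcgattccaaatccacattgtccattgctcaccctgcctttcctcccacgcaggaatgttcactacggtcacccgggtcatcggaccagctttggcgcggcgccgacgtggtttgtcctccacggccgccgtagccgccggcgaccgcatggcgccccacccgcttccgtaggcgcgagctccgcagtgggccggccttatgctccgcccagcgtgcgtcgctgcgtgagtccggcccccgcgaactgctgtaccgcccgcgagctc

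Complex I takes electrons from NADH. Of its 38 members 6, 7, 7 and 8 rose in the 4 groups (control, control with tamoxifen, flox, flox with tamoxifen) and 12, 9, 9 and 8 fell, and the median log2 change was -0.13, -0.14, 0.01 and -0.07. In either direction 47.4%, 42.1%, 42.1% and 42.1% of the 38 were called, next to 57.4%, 57.6%, 57.3% and 58.9% of all genes. Rises and falls both included core subunits, which carry the redox centres, and accessory subunits. Its largest rise in 3 of the 4 groups was that of Ndufa10, an accessory subunit of the matrix side; in control cells without tamoxifen it was that of Ndufa6. The log2 ratios of Ndufa10 were 0.70 and 1.22 in untreated control cells, 0.99 and 1.26 in control cells with tamoxifen, 1.17 and 1.07 in untreated flox cells and 1.03 and 0.95 in flox cells with tamoxifen. All 8 values were at 0.70 or higher, and the groups overlapped. The fitted changes were 0.96 ± 0.12, 1.12 ± 0.12, 1.12 ± 0.12 and 0.99 ± 0.12 (SE), with adjusted p of at most 0.000914.

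Ndufa6, an accessory subunit of the LYR family, rose in every group. Its log2 ratios were 1.10 and 0.88 in untreated control cells, 1.13 and 0.99 in control cells with tamoxifen, 0.67 and 0.73 in untreated flox cells and 0.69 and 0.65 in flox cells with tamoxifen. The 4 control values, at 0.88 or more, were all above the 4 flox values, at 0.73 or less. Neither genotype comparison passed the test: the difference of flox from control was -0.29 ± 0.11 (SE, adjusted p 0.182) without tamoxifen and -0.39 ± 0.11 (SE, adjusted p 0.0711) with it. For the iron-sulfur core subunit Ndufs8 the ratios were 0.60 and 1.05 in control cells, 0.67 and 0.96 in control cells with tamoxifen, 1.04 and 1.12 in flox cells and 0.68 and 0.71 in flox cells with tamoxifen. The flox cells without tamoxifen were highest in experiment 1 and experiment 2. The fitted changes of Ndufs8 were 0.83 ± 0.09, 0.81 ± 0.09, 1.08 ± 0.09 and 0.70 ± 0.09 (SE).

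Ndufa11, a membrane arm subunit, had ratios of 0.67 and 1.02 in control cells, 0.65 and 0.88 in control cells with tamoxifen, 0.76 and 0.74 in flox cells and 0.42 and 0.42 in flox cells with tamoxifen. Its flox values with tamoxifen were the lowest in both experiments, and the tamoxifen effect in flox cells of -0.33 ± 0.13 (SE, adjusted p 0.169) did not pass the test. Ndufc2, another membrane arm subunit, rose by 0.48 ± 0.08, 0.60 ± 0.08, 0.57 ± 0.08 and 0.46 ± 0.08 (SE).

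The falls of complex I were smaller than its largest rises. Ndufs1, the largest iron-sulfur subunit of the NADH-oxidising arm, had log2 ratios of -0.57 and -0.48 in untreated control cells, -0.60 and -0.42 in control cells with tamoxifen, -0.38 and -0.26 in untreated flox cells and -0.40 and -0.09 in flox cells with tamoxifen. All 8 were negative, and the control values, at -0.42 or lower, lay below those of the flox cells, at -0.40 or higher. The fit gave changes of -0.53 ± 0.07, -0.51 ± 0.07, -0.32 ± 0.07 and -0.24 ± 0.07 (SE), with adjusted p of at most 0.0277. Ndufb3, an accessory subunit of the membrane arm, gave -0.26 and -0.65 in control cells, -0.43 and -0.41 in control cells with tamoxifen, -0.42 and -0.40 in flox cells and -0.40 and -0.33 in flox cells with tamoxifen. It was the lowest member of the complex in both flox groups, with fitted changes of -0.41 ± 0.10 and -0.37 ± 0.10 (SE). Ndufab1, the mitochondrial acyl carrier protein, gave -0.83 and -0.06 in control cells, -0.62 and -0.55 in control cells with tamoxifen, 0.02 and -0.13 in flox cells and -0.38 and -0.32 in flox cells with tamoxifen, and the arrays of control cells without tamoxifen lay far apart. It was called in both control groups, at -0.45 ± 0.15 (SE, adjusted p 0.0427) and -0.58 ± 0.15 (SE, adjusted p 0.016), and in neither flox group.

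Ndufa4, a small subunit named for complex I and now counted with complex IV, fell slightly in all groups with loess, while with median centring its sign turned in both control groups, to 0.04 and 0.10. Its ratios were -0.16 and -0.29 in control cells, -0.10 and -0.32 in control cells with tamoxifen, -0.25 and -0.30 in flox cells and -0.28 and -0.35 in flox cells with tamoxifen, with fitted changes of -0.22 ± 0.07, -0.21 ± 0.07, -0.28 ± 0.07 and -0.32 ± 0.07 (SE). Its paralogue Ndufa4l2, a gene known to be induced in hypoxia, was dim: it was well above background on 5 of 8 arrays in the day 3 channel and 4 of 8 in the day 0 channel, and it is described with the genotype comparisons. The probes of Ndufb4 and Ndufs5 match transcripts of 2 genes each, so their values may mix both.

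**Figure D3:**
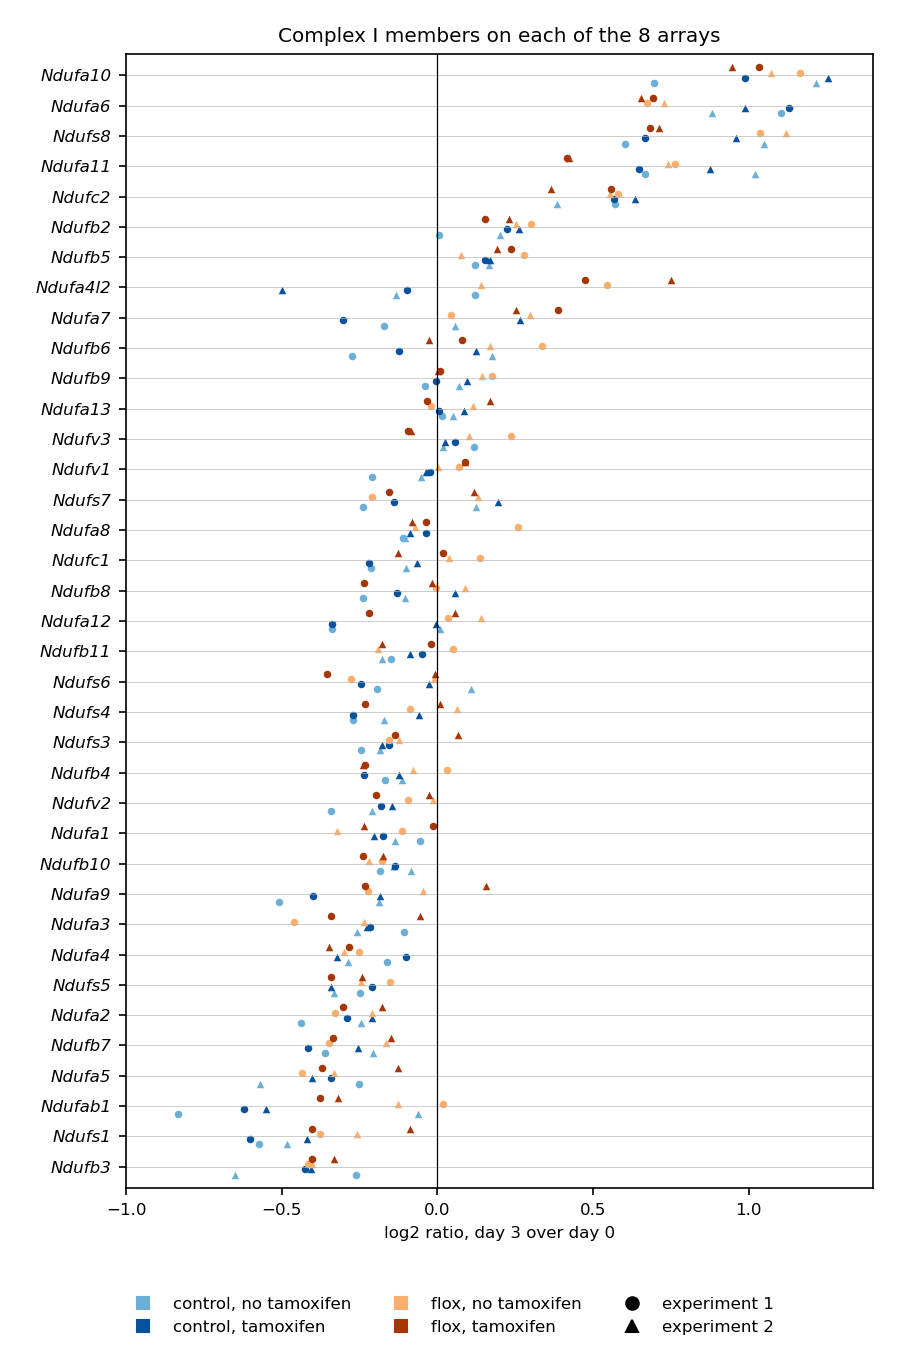
Log2 ratio of day 3 over day 0 (horizontal axis) for complex I members (vertical axis, ordered by their mean), with 1 point per array, coloured by group and shaped by experiment. Ndufa10, Ndufa6 and Ndufs8 have all 8 points to the right of 0, and Ndufs1 and Ndufb3 have all 8 to the left of 0.

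Complex II links the citric acid cycle to the chain, and 1 of its 4 members rose in each group. This was Sdhb, the iron-sulfur subunit, with log2 ratios of 0.35 and 0.26 in untreated control cells, 0.42 and 0.30 in control cells with tamoxifen, 0.80 and 0.38 in untreated flox cells and 0.65 and 0.39 in flox cells with tamoxifen. All 8 were positive, and in each experiment both flox values were above both control values. The fit gave 0.31 ± 0.08, 0.36 ± 0.08, 0.59 ± 0.08 and 0.52 ± 0.08 (SE). A further, less bright probe of Sdhb gave larger changes of 0.99, 1.11, 1.27 and 1.18. Sdha, the flavoprotein that oxidises succinate, gave -0.39 and -0.04 in control cells, -0.23 and -0.03 in control cells with tamoxifen, -0.25 and 0.00 in flox cells and 0.01 and 0.18 in flox cells with tamoxifen, and fell in control cells without tamoxifen at -0.21 ± 0.07 (SE, adjusted p 0.0394). The membrane anchor Sdhc gave -0.21 and -0.17 in control cells, -0.01 and -0.20 in control cells with tamoxifen, 0.07 and -0.14 in flox cells and 0.07 and -0.09 in flox cells with tamoxifen, on both sides of 0. The anchors Sdhc and Sdhd were called in no group, with changes between -0.19 and 0.09. In either direction 50%, 25%, 25% and 25% of the 4 were called, next to 57.4%, 57.6%, 57.3% and 58.9% of all genes.

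Complex III, the cytochrome bc1 complex, had 1, 1, 2 and 0 rises and 1, 1, 1 and 2 falls among 8 members. In either direction 25%, 25%, 37.5% and 25% of the 8 were called, next to 57.4%, 57.6%, 57.3% and 58.9% of all genes. Uqcrq, a small subunit, had log2 ratios of -0.44 and -0.50 in untreated control cells, -0.29 and -0.44 in control cells with tamoxifen, -0.18 and -0.35 in untreated flox cells and -0.60 and -0.57 in flox cells with tamoxifen. All 8 were negative, and the flox cells with tamoxifen were the lowest in both experiments. Fitted changes came to -0.47 ± 0.07, -0.36 ± 0.07, -0.27 ± 0.07 and -0.59 ± 0.07 (SE), with adjusted p of at most 0.0186. With median centring they were -0.16, 0.01, -0.05 and -0.46. A further probe of Uqcrq gave -0.18, -0.06, -0.04 and -0.40. Uqcrh, the acidic hinge protein near cytochrome c1, gave 0.42 and 0.27 in control cells, 0.36 and 0.21 in control cells with tamoxifen, 0.36 and 0.09 in flox cells and 0.22 and -0.07 in flox cells with tamoxifen. It rose in 3 groups, and in flox cells with tamoxifen, where its arrays had opposite signs, the change was 0.08 ± 0.07 (SE, adjusted p 0.361). The core protein Uqcrc1 gave -0.17 and 0.28 in control cells, 0.09 and 0.26 in control cells with tamoxifen, 0.17 and 0.33 in flox cells and 0.20 and 0.26 in flox cells with tamoxifen. It rose in flox cells without tamoxifen, at 0.25 ± 0.09 (SE, adjusted p 0.0485), and the iron-sulfur protein Uqcrfs1 was called in no group.

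Of the genes filed here under complex IV by their Cox names, none was called lower in any group; Ndufa4, filed under complex I by its name, was called lower in all 4. Of its 15 measured members 6, 8, 7 and 4 rose, and the median log2 change was 0.15, 0.27, 0.13 and 0.07. With median centring 9, 9, 7 and 4 rose and none fell, and with Agilent's processed ratios 5, 7, 6 and 3 rose and none fell. The genes that rose were 40%, 53.3%, 46.7% and 26.7% of the 15, next to 23.3%, 23.9%, 23.9% and 25.5% of all genes called higher and 57.4%, 57.6%, 57.3% and 58.9% called in either direction. Which complex moved differently from another was not tested.

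The subunits of complex IV that rose in all groups were Cox6b1, Cox7c and Cox8a, all small nuclear-encoded subunits around the catalytic core. Cox7c had log2 ratios of 0.43 and 0.61 in untreated control cells, 0.33 and 0.75 in control cells with tamoxifen, 0.34 and 0.54 in untreated flox cells and 0.30 and 0.57 in flox cells with tamoxifen. Experiment 2 was above experiment 1 in all 4 groups. The fitted changes were 0.52 ± 0.07, 0.54 ± 0.07, 0.44 ± 0.07 and 0.43 ± 0.07 (SE). The further probes of Cox7c gave 0.15, 0.27, 0.05 and -0.01, and 0.34, 0.22, 0.17 and -0.02, so the size and, in flox cells with tamoxifen, the sign differed between its probes. Cox6b1, a subunit of the intermembrane space side, gave 0.49 and 0.48 in control cells, 0.41 and 0.38 in control cells with tamoxifen, 0.44 and 0.38 in flox cells and 0.36 and 0.52 in flox cells with tamoxifen, with fitted changes of 0.49 ± 0.07, 0.40 ± 0.07, 0.41 ± 0.07 and 0.44 ± 0.07 (SE). Cox8a gave 0.28 and 0.25 in control cells, 0.44 and 0.29 in control cells with tamoxifen, 0.34 and 0.22 in flox cells and 0.27 and 0.18 in flox cells with tamoxifen, with fitted changes of 0.27 ± 0.07, 0.36 ± 0.07, 0.28 ± 0.07 and 0.22 ± 0.07 (SE). The values of both overlapped among the groups.

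Several complex IV subunits have a paralogue known from other tissues, and these were measured beside the common forms. Cox6a2, the heart and muscle form, gave 0.39 and -0.09 in untreated control cells, 0.44 and 0.26 in control cells with tamoxifen, 1.07 and 0.74 in untreated flox cells and 0.58 and 0.75 in flox cells with tamoxifen. Flox cells were above control cells in both experiments, with both tamoxifen states. The fit gave changes of 0.15 ± 0.12, 0.35 ± 0.12, 0.90 ± 0.12 and 0.66 ± 0.12 (SE), and the difference of flox from control without tamoxifen was 0.76 ± 0.16 (SE, adjusted p 0.0636), which did not pass the test. The common form Cox6a1 gave -0.11 and 0.14 in control cells, 0.00 and 0.14 in control cells with tamoxifen, 0.24 and 0.21 in flox cells and -0.01 and 0.05 in flox cells with tamoxifen and was called in flox cells without tamoxifen, at 0.22 ± 0.08 (SE, adjusted p 0.0443).

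Cox6b2, known from testis, gave 0.70 and 0.20 in control cells, 0.81 and 0.18 in control cells with tamoxifen, 0.18 and 0.08 in flox cells and 0.28 and 0.22 in flox cells with tamoxifen. Experiment 1 of the control cells was far above the other values, and the gene was called in both control groups, at 0.45 ± 0.12 and 0.50 ± 0.12 (SE). Cox7a1, the muscle form, gave 0.29 and -0.11 in control cells, 0.19 and 0.11 in control cells with tamoxifen, 0.21 and -0.01 in flox cells and 0.23 and 0.00 in flox cells with tamoxifen, and Cox7a2, the common form, -0.21 and -0.16 in control cells, -0.21 and -0.16 in control cells with tamoxifen, -0.13 and -0.13 in flox cells and -0.23 and -0.12 in flox cells with tamoxifen. Neither was called in any group, although all 8 values of Cox7a2 were negative. Cox7a2l, a relative that takes part in supercomplex formation, had 8 positive values and rose in 3 groups, by 0.31 ± 0.08, 0.37 ± 0.08 and 0.32 ± 0.08 (SE), and its change in flox cells with tamoxifen was 0.17 ± 0.08 (SE, adjusted p 0.0952).

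The regulatory subunit Cox4i1 gave 0.06 and 0.16 in control cells, 0.13 and 0.11 in control cells with tamoxifen, 0.05 and 0.12 in flox cells and 0.04 and 0.09 in flox cells with tamoxifen, and its paralogue Cox4i2, known from lung and hypoxia, 0.08 and 0.03 in control cells, -0.02 and -0.05 in control cells with tamoxifen, -0.11 and -0.15 in flox cells and 0.01 and 0.01 in flox cells with tamoxifen. Neither was called in any group. Cox7b gave -0.14 and -0.11 in control cells, -0.19 and -0.20 in control cells with tamoxifen, -0.01 and -0.14 in flox cells and -0.16 and -0.11 in flox cells with tamoxifen and was called in no group. The testis forms Cox7b2 and Cox8c and the muscle form Cox8b were not well above background on any array.

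**Figure D4:**
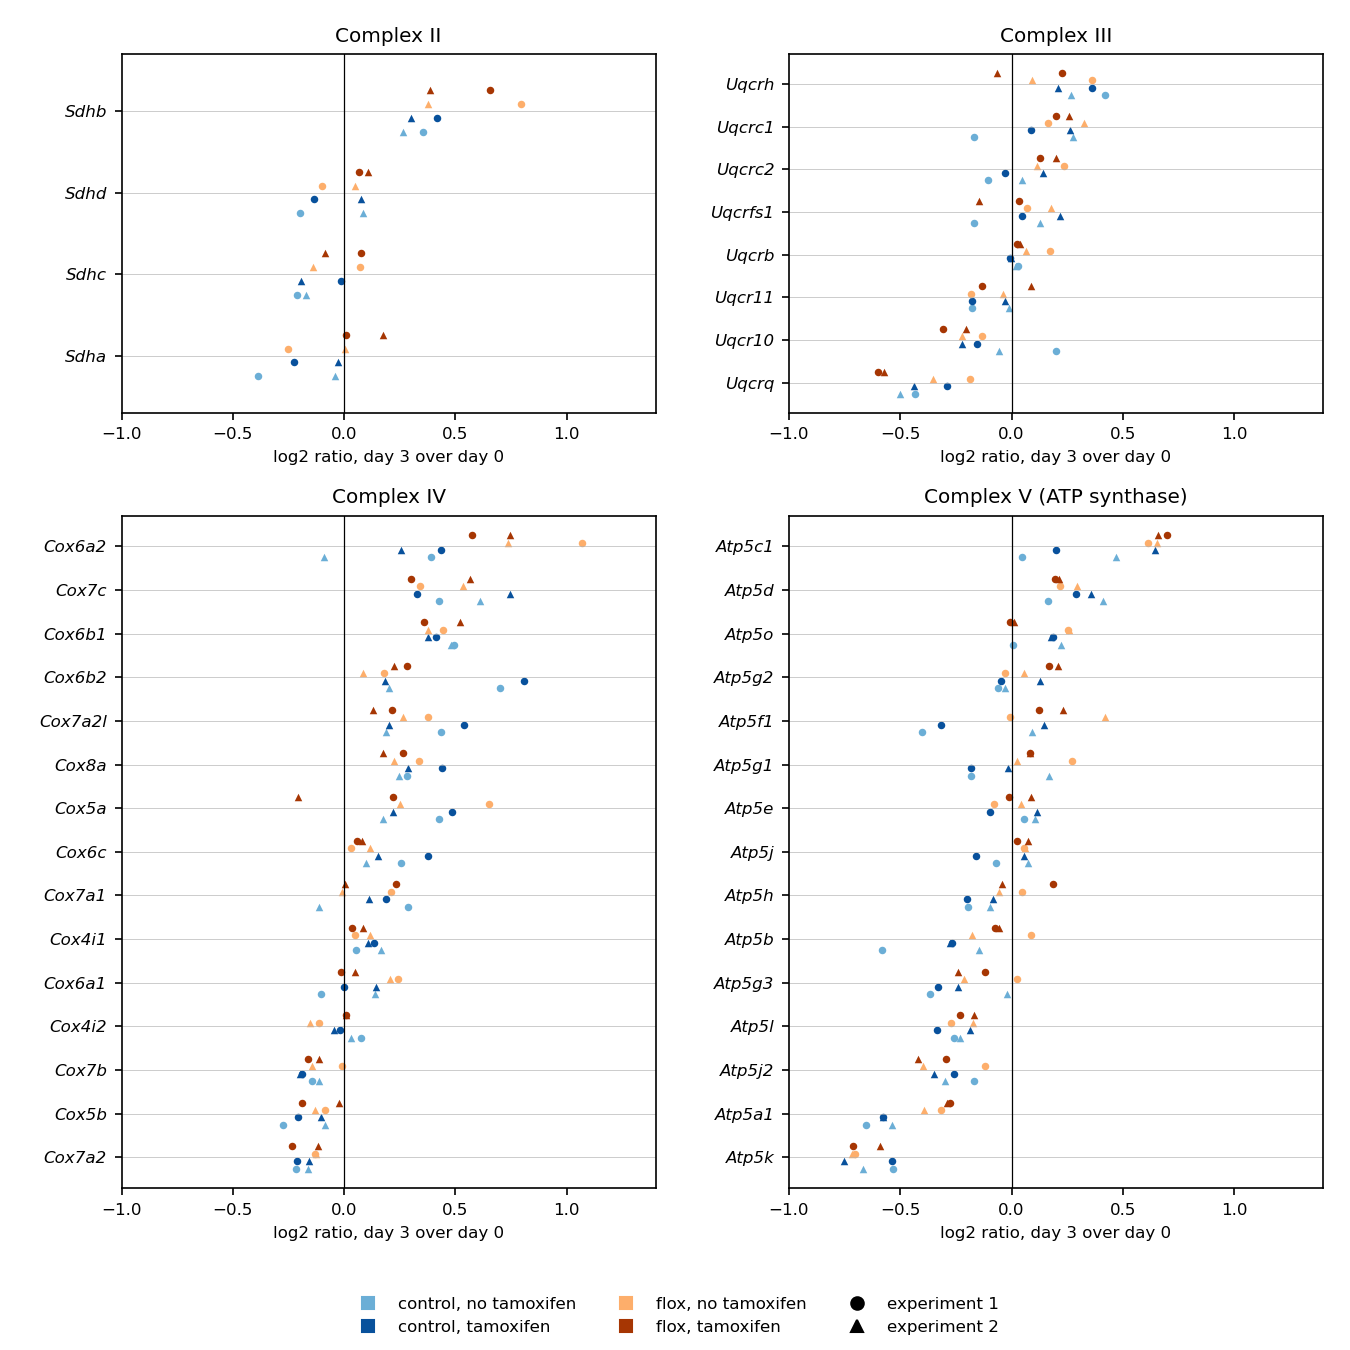
Log2 ratio of day 3 over day 0 (horizontal axes) for the members of complexes II, III, IV and V (vertical axes, ordered by their mean), with 1 point per array, coloured by group and shaped by experiment. Cox5a has its lowest point, -0.21, in flox cells with tamoxifen in experiment 2, and Atp5k and Uqcrq lie left of 0 on all 8 arrays.

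Complex V had 1, 2, 3 and 1 rises and 5, 4, 4 and 4 falls among 15 members. In either direction 40%, 40%, 46.7% and 33.3% of the 15 were called, next to 57.4%, 57.6%, 57.3% and 58.9% of all genes. Of all genes 34%, 33.7%, 33.3% and 33.4% were called lower. The falls of complex V included the catalytic head and the membrane part. Atp5k, the small membrane subunit e, had log2 ratios of -0.53 and -0.67 in untreated control cells, -0.54 and -0.75 in control cells with tamoxifen, -0.70 and -0.72 in untreated flox cells and -0.71 and -0.59 in flox cells with tamoxifen. All 8 were at -0.53 or lower, and the groups overlapped. The fit gave -0.60 ± 0.08, -0.64 ± 0.08, -0.71 ± 0.08 and -0.65 ± 0.08 (SE), with adjusted p of at most 0.00127. They were -0.38, -0.37, -0.56 and -0.57 with median centring, and a further probe gave -0.58, -0.67, -0.67 and -0.57. Atp5l, subunit g of the same membrane part, gave fitted changes of -0.24 ± 0.07, -0.26 ± 0.07, -0.22 ± 0.07 and -0.20 ± 0.07 (SE) with loess, while with median centring both control values turned positive, to 0.04 and 0.10. For Atp5j2, subunit f, the probes disagreed: the brightest gave -0.23 ± 0.07, -0.31 ± 0.07, -0.26 ± 0.07 and -0.36 ± 0.07 (SE) and a further one 0.41, 0.35, 0.35 and 0.29, and with median centring the brightest turned positive in both control groups, at 0.09 each. The brightest probe is counted among the falls above, and no direction is given for the gene Atp5j2.

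Atp5a1, the alpha subunit of the head, gave -0.65 and -0.54 in control cells, -0.58 and -0.58 in control cells with tamoxifen, -0.32 and -0.39 in flox cells and -0.28 and -0.29 in flox cells with tamoxifen. The 4 control values, at -0.54 or lower, were below the 4 flox values, at -0.28 to -0.39. Fitted changes came to -0.59 ± 0.07, -0.58 ± 0.07, -0.35 ± 0.07 and -0.28 ± 0.07 (SE), and the genotype difference was 0.24 ± 0.10 (SE, adjusted p 0.219) without tamoxifen and 0.30 ± 0.10 (SE, adjusted p 0.109) with it. Atp5c1, the gamma subunit of the central stalk, moved the other way, with ratios of 0.05 and 0.47 in untreated control cells, 0.20 and 0.65 in control cells with tamoxifen, 0.61 and 0.65 in untreated flox cells and 0.70 and 0.66 in flox cells with tamoxifen. It rose in 3 groups, by 0.42 ± 0.11, 0.63 ± 0.11 and 0.68 ± 0.11 (SE), and both control groups had arrays far apart. Atp5d, the delta subunit of the same stalk, gave 0.16 and 0.41 in control cells, 0.29 and 0.36 in control cells with tamoxifen, 0.22 and 0.30 in flox cells and 0.20 and 0.21 in flox cells with tamoxifen and rose in 3 groups, all but flox cells with tamoxifen. The beta subunit Atp5b was called in control cells without tamoxifen alone, at -0.36 ± 0.12 (SE, adjusted p 0.0374).

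The c ring of the ATP synthase is made from 3 genes that encode the same mature protein. Atp5g1 gave -0.18 and 0.17 in control cells, -0.18 and -0.01 in control cells with tamoxifen, 0.27 and 0.02 in flox cells and 0.08 and 0.09 in flox cells with tamoxifen, Atp5g2 gave -0.06 and -0.03 in control cells, -0.05 and 0.13 in control cells with tamoxifen, -0.03 and 0.06 in flox cells and 0.17 and 0.21 in flox cells with tamoxifen, and Atp5g3 gave -0.37 and -0.02 in control cells, -0.33 and -0.24 in control cells with tamoxifen, 0.03 and -0.22 in flox cells and -0.12 and -0.24 in flox cells with tamoxifen. None of the 3 was called in any group. The 3 genes named like subunits gave mixed values: Cox4nb (now Emc8) fell in 3 groups, with -0.44 ± 0.07, -0.34 ± 0.07, -0.26 ± 0.07 and -0.08 ± 0.07 (SE), Atp5sl (now Dmac2) rose in 3, and Atp5s (now Dmac2l) rose in both flox groups.

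Tamoxifen changed the respiratory genes little in either genotype. In control cells 0 of 83 members were called, and so were 0% of all genes (995 genes had an unadjusted p under 0.05). The 3 smallest p belonged to Uqcr10, at -0.26 ± 0.12 (SE, adjusted p 0.927), Atp5s, at 0.27 ± 0.14 (SE, adjusted p 0.996), and Ndufa4l2, at -0.29 ± 0.18 (SE, adjusted p 1). The members' median was 0.04 and their range -0.29 to 0.27.

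In flox cells, where Thoc5 changed with tamoxifen by -2.27 ± 0.10 on the log2 scale (SE, limma adjusted p 0.000714), 1 of 83 members was called, against 9.02% of all genes (4.16% lower). This was Cox5a, a nuclear subunit of complex IV, which has its probe in chr9:57379593-57380141 of mm9 on the plus strand. Its log2 ratios were 0.43 and 0.17 in untreated control cells, 0.49 and 0.22 in control cells with tamoxifen, 0.65 and 0.25 in untreated flox cells and 0.22 and -0.21 in flox cells with tamoxifen. In each experiment the flox cells with tamoxifen had the lowest of the 4 values, although their range overlapped those of the other groups when both experiments were joined. The tamoxifen effect was -0.43 in experiment 1 and -0.46 in experiment 2, and -0.45 ± 0.10 (SE, adjusted p 0.0474) in the fit, with a 95% interval of -0.69 to -0.20. In control cells it was 0.05 ± 0.10 (SE), and the difference of the effects, -0.50 ± 0.14 (SE, adjusted p 0.173), did not pass the test. The call was lost with Agilent's processed ratios (-0.44, adjusted p 0.0805), with median centring (-0.55, adjusted p 0.181), without a term for the experiment (adjusted p 0.369) and without any single array of the flox cells or of the control cells with tamoxifen (adjusted p 0.0973 to 0.266).

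Uqcrq, Ndufs8, Ndufv3 and Ndufa11 had the next smallest p for tamoxifen in flox cells, with effects of -0.32 ± 0.10 (SE, adjusted p 0.114), -0.38 ± 0.13 (SE, adjusted p 0.132), -0.26 ± 0.10 (SE, adjusted p 0.165) and -0.33 ± 0.13 (SE, adjusted p 0.169), none of which passed. The 95% interval of the effect lay within a 2-fold change for 83 of 83 members, against 89.6% of all genes, and within a 1.5-fold change for 76 of 83, against 61.4%. The members' median effect was -0.02, with quartiles of -0.10 and 0.05, and the quartiles of all genes spanned 0.336 against 0.153 for the members. In the same comparison 2 of 6 proliferation markers, Ccnb1 and Plk1, fell, by 0.75 ± 0.14 and 0.40 ± 0.09 (SE), with a list median of -0.41. Of 9 macrophage markers 1 rose and 1 fell, and 1 of 3 B lineage and 1 of 5 megakaryocyte markers fell. No neutrophil, erythroid, T and NK cell or mast and basophil marker was called. Beside these counts, 4.85% of all genes were called higher and 4.16% lower. Of 5 stromal markers Dcn rose, by 1.17 ± 0.26 (SE), and the other 4 were not called. In experiment 1 the stromal list median was -0.51 in flox cells both with and without tamoxifen. In experiment 2 it was 0.93 with tamoxifen and -0.90 without it. The part of these cell markers in the values of Cox5a was not tested.

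The tamoxifen effects of both genotypes differed for 0 of 83 members, against 1.14% of all genes. The members' median difference was -0.06 and its range -0.50 to 0.56, and the smallest p was that of Cox5a. The 95% interval of the difference lay within 2-fold for 82 members and within 1.5-fold for 60.

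**Figure D5:**
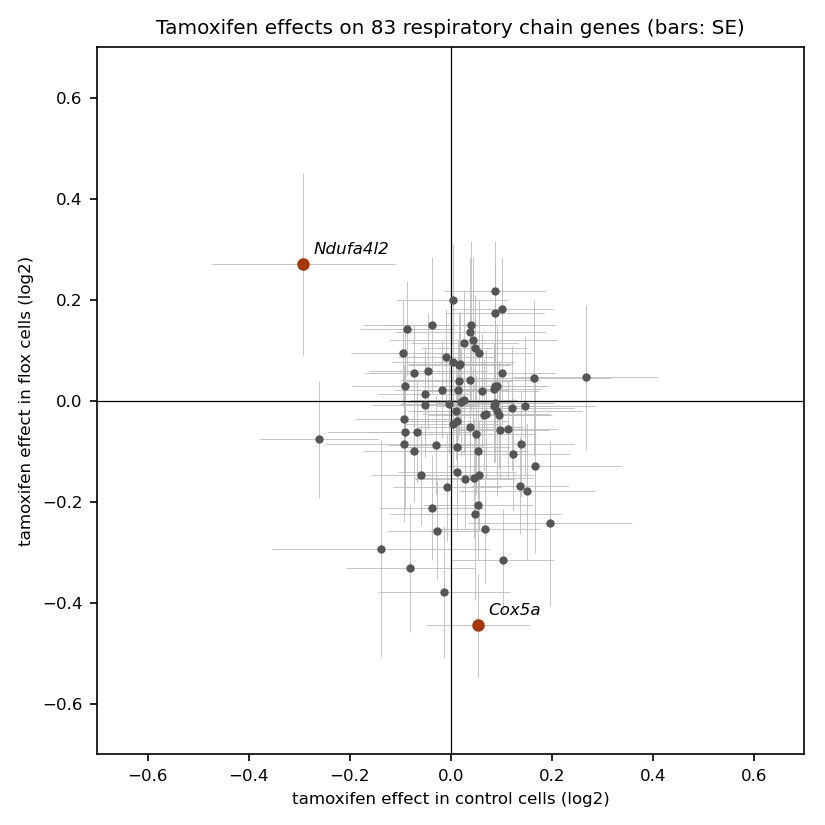
Tamoxifen effect on the log2 scale in control cells (horizontal axis) and in flox cells (vertical axis) for the 83 members, as fitted values with SE bars. Cox5a is the member called in flox cells, at -0.45 against 0.05 in control cells. Ndufa4l2, called between the genotypes with tamoxifen, has fitted effects of opposite sign, neither of them called. In experiment 1 both of its effects were negative, at -0.22 in control and -0.07 in flox cells.

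The genotype comparisons set day 3 over day 0 ratios against each other, each taken against the day 0 RNA of its own genotype, so a difference between the genotypes at day 0 enters them. Without tamoxifen, 0 of 83 members were called, against 2.88% of all genes. The median difference of flox from control was 0.09, with 62 of 83 members above 0, and it was 0.14 in experiment 1 and 0.04 in experiment 2. The smallest p values were those of Cox6a2, Atp5s and Atp5f1, the last at 0.36 ± 0.13 (SE, adjusted p 0.164). All 6 proliferation markers fell from day 0 to day 3 in both genotypes, and the ratio was higher in flox cells for 4 of 6, with list medians of -1.08 in flox and -1.77 in control cells. The ratio was lower in flox cells for 3 of 3 mast and basophil markers. The part of this in the members' values was not tested.

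With tamoxifen, 1 member had a higher ratio in flox than in control cells, against 11.3% of all genes called (5.42% higher), and 0 were lower. This was Ndufa4l2, with log2 ratios of 0.12 and -0.13 in untreated control cells, -0.10 and -0.50 in control cells with tamoxifen, 0.54 and 0.14 in untreated flox cells and 0.47 and 0.75 in flox cells with tamoxifen. The flox values with tamoxifen, 0.47 and 0.75, were above the control values with tamoxifen, -0.10 and -0.50, and the difference was 0.91 ± 0.18 (SE, adjusted p 0.0288), of 0.57 in experiment 1 and 1.25 in experiment 2. In the day 3 channel the probe was well above background on both arrays of flox cells with tamoxifen and on neither of control cells with tamoxifen, so the control value is a bound. In the day 0 channel it was not well above background on the experiment 1 array of either of these groups. The ratios, their difference and its p therefore rest partly on signal not well above background. The probe passed the filter on dim probes only through the day 3 channel of the flox groups, where it is high. The call is therefore not independent of the filter. In the day 3 channel alone, the mean log2 signal was 7.76 in flox cells, against a bound of 6.86 in control cells. By that bound the fold was 1.87 or more. The same channel let the probe pass the filter, so this fold is no separate support for the call. The measured control mean was 6.67. The call was lost without a term for the experiment (adjusted p 0.0712) and without either array of control cells with tamoxifen or the experiment 2 array of tamoxifen-treated flox cells (adjusted p 0.103 to 0.159). Ndufa6 and Cox5a were next, at -0.39 ± 0.11 (SE, adjusted p 0.0711) and -0.35 ± 0.10 (SE, adjusted p 0.0774), and did not pass. Beside these values, the ratio was lower in flox cells for 2 of 9 macrophage, 4 of 10 neutrophil and 3 of 3 mast and basophil markers. It was also lower for 4 of 5 megakaryocyte and 3 of 3 B lineage markers, and higher for 1 of 5 stromal markers, Dcn. Their part was not tested.

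Related genes outside the name rule were counted in 5 lists. Beside their day 3 counts stand the 23.3%, 23.9%, 23.9% and 25.5% of all genes called higher and the 34%, 33.7%, 33.3% and 33.4% called lower, and beside those for tamoxifen in flox cells the 4.85% called higher and 4.16% called lower. Of 43 assembly factors, which build the complexes, 18, 19, 22 and 18 rose at day 3 in the 4 groups and 5, 5, 1 and 7 fell. Surf1, needed for complex IV assembly, changed by 1.11 ± 0.10, 1.29 ± 0.10, 0.89 ± 0.10 and 1.01 ± 0.10 (SE), and Tmem126b, needed for complex I assembly, by 0.79 ± 0.09, 1.03 ± 0.09, 1.17 ± 0.09 and 1.24 ± 0.09 (SE). Lrpprc, which stabilises mitochondrial mRNAs, changed by -0.98 ± 0.08, -0.9997 ± 0.08, -0.94 ± 0.08 and -0.80 ± 0.08 (SE). For tamoxifen in flox cells 3 of the 43 fell. Sdhaf1 of complex II changed by -0.50 ± 0.10 (SE, limma adjusted p 0.0344), Ttc19 of complex III by -0.66 ± 0.11 (SE, limma adjusted p 0.0172) and Cox18 of complex IV by -0.68 ± 0.15 (SE, limma adjusted p 0.0435). None of the 3 passed the test of the difference from the tamoxifen effect in control cells.

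Of 15 regulators of mitochondrial biogenesis 3, 1, 1 and 2 rose at day 3 and 10, 7, 7 and 7 fell. Twnk, the mitochondrial DNA helicase, changed by -0.82 ± 0.08, -0.76 ± 0.08, -0.72 ± 0.08 and -0.55 ± 0.08 (SE), and Gabpa, which encodes the ETS factor named above, by -0.50 ± 0.08, -0.51 ± 0.08, -0.37 ± 0.08 and -0.55 ± 0.08 (SE). Pprc1, a coactivator of the PGC-1 family, fell with tamoxifen in flox cells, at -0.53 ± 0.11 (SE, limma adjusted p 0.0361), and its ratio of day 3 over day 0 was lower in flox than in control cells without tamoxifen, by -0.67 ± 0.11 (SE, limma adjusted p 0.0389). Of 18 genes of the citric acid cycle and pyruvate dehydrogenase 2, 3, 4 and 6 rose at day 3 and 7, 5, 2 and 6 fell. For tamoxifen in flox cells 1 of the 18 rose, Suclg2, a subunit of succinyl-CoA ligase, at 0.56 ± 0.10 (SE, limma adjusted p 0.0234). Idh3b, a subunit of isocitrate dehydrogenase, changed by 1.10 ± 0.10, 1.29 ± 0.10, 1.21 ± 0.10 and 1.04 ± 0.10 (SE) and Ogdh, of the oxoglutarate dehydrogenase complex, by -0.67 ± 0.07, -0.75 ± 0.07, -0.78 ± 0.07 and -0.69 ± 0.07 (SE).

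Of 13 electron carriers and partners of the ATP synthase 4, 5, 5 and 7 rose at day 3 and 4, 4, 1 and 3 fell. With tamoxifen in flox cells 1 of the 13 fell, and 0 of 13 passed the test of the difference of the tamoxifen effects. The uncoupling protein gene Ucp2 changed by 0.63 ± 0.07, 0.66 ± 0.07, 0.79 ± 0.07 and 0.74 ± 0.07 (SE), the ADP/ATP carrier gene Slc25a5 by 0.77 ± 0.14, 0.85 ± 0.14, 1.31 ± 0.14 and 0.80 ± 0.14 (SE), and Etfb, a subunit of the electron transfer flavoprotein, by -0.60 ± 0.08, -0.52 ± 0.08, -0.37 ± 0.08 and -0.47 ± 0.08 (SE). Of 79 mitochondrial ribosome genes 12, 16, 22 and 15 rose at day 3 and 18, 14, 8 and 16 fell, and 3 of the 79 fell with tamoxifen in flox cells, a share near that of all genes, with 0 of 79 passing the test of the difference of the tamoxifen effects. The 3 were Mrpl35, at -0.67 ± 0.11 (SE, limma adjusted p 0.0158), Mrpl57, at -0.49 ± 0.10 (SE, limma adjusted p 0.0348), and Mrpl3, at -0.59 ± 0.13 (SE, limma adjusted p 0.0446).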

How the data were processed

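Cytoplasmic RNA was measured on 8 arrays with 2 colours, and groups follow the sample labels. The deposited intensity values are the mean brightness and median local background of each spot in green and red, per the file headers, and the deposited flags of 0 or 1 (other) mark outliers and spots well above background. Agilent Feature Extraction 10.7.3.1 is named in the submitters' processing notes. The deposited log10 ratios were background-subtracted and dye-normalized by the authors, per the file headers, and the value table of the authors holds the same log10 ratios turned for the dye swap, equal to within 5e-10.

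From the intensities, background was corrected by normexp with an offset of 50 and each array's ratios were then loess-normalized and turned to day 3 over day 0. Control spots and outlier spots were left out (0.672% to 0.974% of spots per array). After the filter on dim probes, 22407 of 39429 probes remained, and the brightest stood for its gene. Symbols were updated through RefSeq for 31001 probes. All 8 arrays were fitted together with limma 3.58.1 (R 4.3.3, statmod 1.5.0), with a term per group and experiment, moderated tests and Benjamini-Hochberg adjustment over all 17949 genes. Residual degrees of freedom were 3 and the prior added 3.46; 84 genes lacked an array and were fitted on the others. The number of arrays limits the precision. The series' design text says that the replicate numbers mark biological experiments. Between arrays of the same number, deviations from group means correlated at 0.31 to 0.387 across genotypes. Within a genotype, where the arrays share a day 0 RNA, they correlated at 0.729 (control) and 0.627 (flox). The reported fit has no term for the shared day 0 RNA. An alternative fit took it as a random block, with a correlation of 0.325.

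Any member could be named, and 1 is counted but not reported here by name. Values on all arrays are given for members called in a tamoxifen or genotype comparison, for the largest rise and fall of each complex and for subunits with paralogues; of other lists, the genes with the 3 smallest p per comparison. The members and lists were chosen with earlier results of these data known. Alternatives were other scaling, filters, probe summaries, blocks and leaving out each array. The method was tested on simulated data with independent errors on each array, for tamoxifen in flox cells only. The shared day 0 RNA was not simulated, so that test does not cover the day 3 or genotype comparisons.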

Additional observations from a re-analysis of the deposited data

Results flagged for a closer look

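Cox5a, a nuclear subunit of cytochrome c oxidase, was singled out because it was the member called for tamoxifen in flox cells. The effect was -0.45 on the log2 scale in flox cells, negative in both experiments, and 0.05 in control cells, positive in both. The test of the difference of the effects did not pass (limma adjusted p 0.173).

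Ndufa4l2, a paralogue of Ndufa4, was singled out because flox and control cells differed by 0.91 on the log2 scale in their ratios of day 3 over day 0 with tamoxifen. The probe was not well above background at day 3 on either control array of that comparison, so this value rests partly on undetected signal. It passed the filter on dim probes only through the day 3 channel of the flox groups, and the strict filter drops the gene. The difference without tamoxifen was smaller, and the test of the difference of the tamoxifen effects did not pass (limma adjusted p 0.371).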

How the results depend on the processing

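Over all members called at day 3, median centring turned 3 falls in control cells without tamoxifen and 5 in control cells with tamoxifen positive. A smaller set of 34 called values was followed through the alternatives. These were the tamoxifen and genotype calls and, where called, the largest rise and fall of each complex in each group. Under another scaling, filter, probe summary or block, 215 of 237 recomputed values kept their direction and their side of the threshold. Of the rest, 21 lost the call and 1 changed sign. That was Uqcrq at day 3 in control cells with tamoxifen, at 0.0097 with median centring (limma adjusted p 0.969). With 1 array left out, 228 of 272 were kept, 44 lost the call and 0 changed sign. The replicate numbers pair the arrays by experiment. Without that block, 22 members were called at day 3 in control cells without tamoxifen in place of 36, 0 for tamoxifen in flox cells and 0 between genotypes with tamoxifen. With median centring 18 were called in flox cells in place of 36, 16 in flox cells with tamoxifen in place of 30, 0 for tamoxifen in flox cells, and 1 between genotypes without tamoxifen (Cox6a2, 0.79, adjusted p 0.0296). Agilent's processed ratios gave 0 calls for tamoxifen in flox cells, and the strict filter, which drops Ndufa4l2, gave 0 between genotypes with tamoxifen. With 1 array left out, the day 3 calls ranged from 19 to 31 in control cells, 11 to 37 in control cells with tamoxifen, 10 to 36 in flox cells and 10 to 34 in flox cells with tamoxifen, and those for tamoxifen in flox cells and between genotypes with tamoxifen from 0 to 1. The causes were not tested. Where an array was left out, the smaller number of samples and the loss of that array's own values cannot be told apart.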

Other observations

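Further probes of the members were measured beside the brightest, 30 probes for 23 genes. Among called members with a further probe, a probe of opposite sign was found for 1 of 10 in control cells at day 3, 1 of 12 in control cells with tamoxifen, 1 of 12 in flox cells and 3 of 11 in flox cells with tamoxifen.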
